A study of Homo sapiens with 8 samples.

Results

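The genes described here are 58 that encode the DNA replication machinery of human cells: origin licensing and firing factors, replicative polymerases, sliding clamp and fork proteins, enzymes of deoxynucleotide supply, histone chaperones and chromatin factors of S phase. They were taken as a list of names, drawn up with earlier results of these data known, and matched by symbol to the 58302 gene rows of a count table. All 58 had enough reads to be tested, out of 14133 genes tested. RNA sequencing was performed on DLD1, an established line of human colorectal cancer cells. The OE-WT cells stably carried wild-type TRMT6/61A from lentiviral constructs, and the CTRL cells carried the vector. TRMT6 and TRMT61A form the methyltransferase that places N1-methyladenosine in tRNA. The study examined senescence in these cells, a state in which the cell cycle stops, and the comparison described here asks how transcripts of the replication machinery stood in OE-WT against CTRL. There were 2 libraries per group, named OE-WT 1, OE-WT 2, CTRL 1 and CTRL 2. Whether the stable cells were clones or pools is not given in the sources used here. The labels state that cells were washed with cycloheximide, a translation inhibitor, before lysis, in both groups alike.

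The construct was visible in the libraries. TRMT6 (chr20:5937228-5950558, GRCh38) had 211 and 181 CPM (counts normalized for library size) in OE-WT against 52.6 and 55.4 CPM in CTRL. TRMT61A (chr14:103529196-103537073) had 138 and 130 CPM against 58.9 and 56.8 CPM. Both OE-WT libraries stood above both CTRL libraries for each gene, with log2 fold changes of 1.86 ± 0.08 (SE) and 1.21 ± 0.07, and the counts do not separate the construct from the cell's own gene. Reads on genes numbered between 10327498 and 12379671 per library. Mitochondrial genes took 33.5% and 29.9% of each OE-WT library and 25.1% and 27.7% of each CTRL library, and their part in the results was not tested. Of 6 colon epithelial markers none was at 0, and they summed to between 10100 and 11800 CPM per library. KRT8 and KRT18 made up most of that sum. EPCAM had 461 to 545 CPM and CDX2 95.5 to 115 CPM, while VIL1 was low, at 2.80 to 4.53 CPM. The 5 markers of blood, stromal and endothelial cells summed to between 1.48 and 2.52 CPM, with CD3E and COL3A1 at 0 in all 4 libraries. Pearson's r of log2 CPM across the genes tested was 0.990 within OE-WT, 0.992 within CTRL and between 0.977 and 0.983 across the groups. The paper's methods call the replicates biological, but give a number that differs from the libraries here. Nothing in the labels says that the libraries came from separate cultures. The p-values therefore measure the spread between these libraries, which may be technical.

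Before S phase, the origin recognition complex, CDC6 and CDT1 load the MCM2-7 helicase onto DNA, a step called licensing, and geminin (GMNN) blocks CDT1 once S phase has begun. Firing then converts the loaded helicase into the active CMG helicase (CDC45, MCM2-7 and GINS) under the control of the CDC7-DBF4 kinase and TOPBP1. Polymerase alpha with primase lays the primers, polymerases epsilon and delta extend the leading and lagging strands with the PCNA clamp, and the fork is stabilized by claspin, TIMELESS and TIPIN. Ribonucleotide reductase, thymidylate synthase, thymidine kinase and dUTPase supply the building blocks, and histone chaperones repackage the new DNA. Many of these genes are known targets of the E2F transcription factors in G1 and S phase.

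The replication genes were mostly higher in OE-WT, by small amounts. With edgeR's quasi-likelihood test and Benjamini-Hochberg adjustment over all 14133 genes, 28 of the 58 genes were higher in OE-WT at an adjusted p below 0.05 (48.3%) and 0 were lower. Over all genes tested, 9.44% were called higher and 11.6% lower. At an unadjusted p below 0.05, 38 members were higher and 0 lower, against 2313 and 2471 of the 14133 genes tested. DESeq2 called 17 members higher and 0 lower, against 519 and 854 of all genes tested. The log2 fold change was above 0 in 54 of the 58 genes, from -0.14 to 1.27, with a median of 0.27 against a median of 0.01 for all genes tested. Both OE-WT libraries exceeded both CTRL libraries in 47 genes, both were lower in 1 gene, TIMELESS, and the groups overlapped in 10. The shares over all genes tested were 29.9% higher and 30.2% lower by that measure. The counts on all 58 genes made up 0.368% and 0.374% of the OE-WT libraries and 0.324% and 0.325% of the CTRL libraries. Their summed level was 3874 and 3797 CPM in OE-WT and 3121 and 3181 CPM in CTRL, a ratio of 1.22. The same ratio over all genes tested was 1.07, a value that is set by the normalization factors and does not give the change of a typical gene. In bulk RNA, more cells in S phase and more of these transcripts in each cell cannot be told apart.

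The study's own thresholds, p below 0.05 before adjustment together with a log2 fold change beyond 1 in either direction, were passed by 1 gene, CLSPN, upward, and by 0 downward. By the same thresholds 0.899% of all genes tested were called higher and 2.25% lower. Every other call at an adjusted p below 0.05 was of a change under 2-fold.

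**Figure D1:**
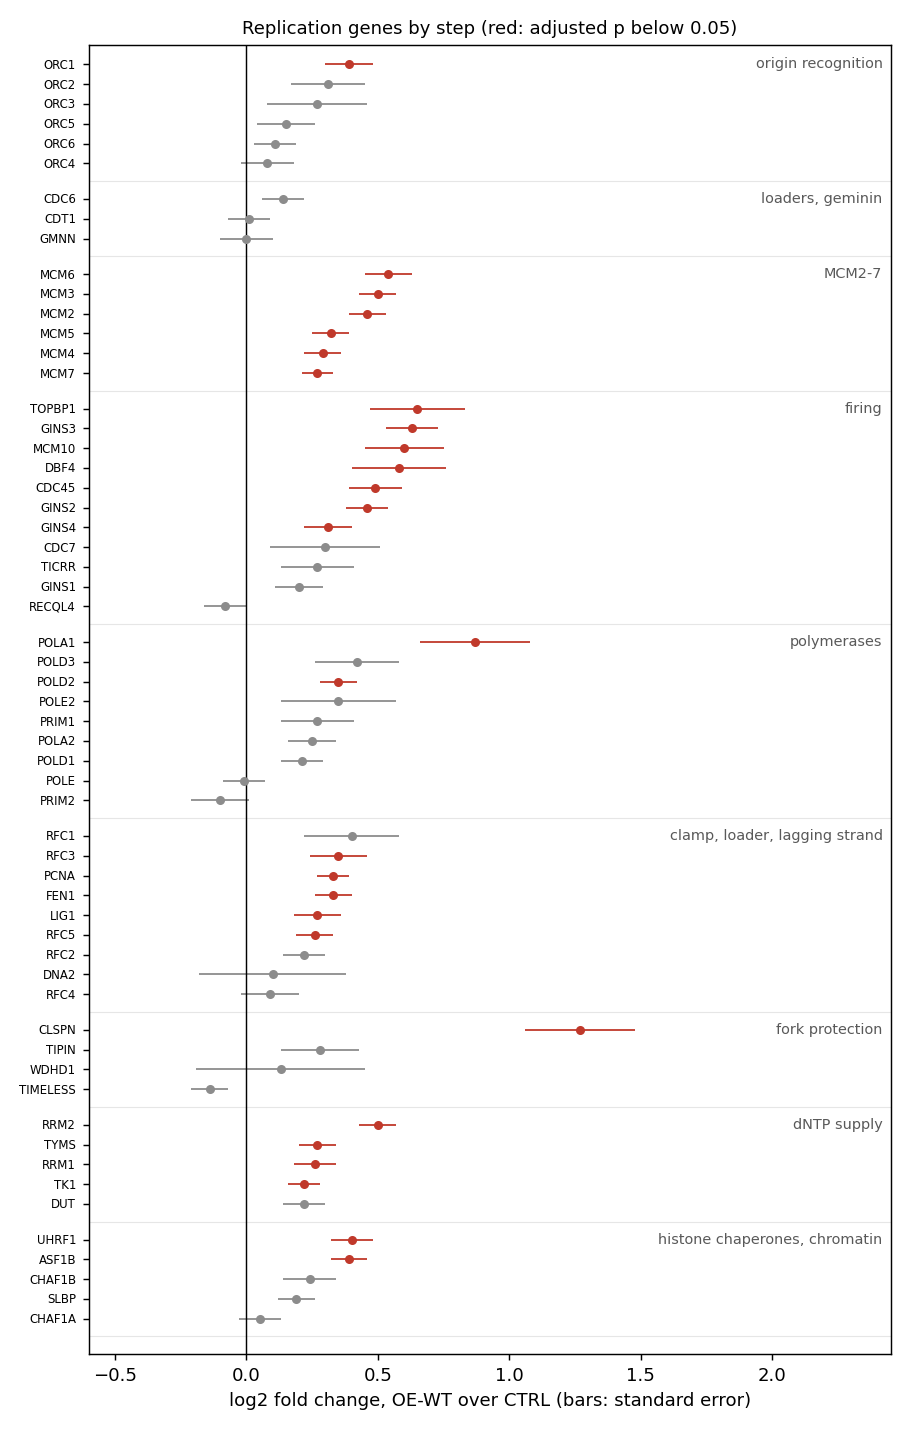
Log2 fold change (horizontal axis) of each of the 58 replication genes, OE-WT over CTRL, grouped by step; points are the edgeR estimates, bars are standard errors, and red marks an adjusted p below 0.05. All 6 MCM2-7 subunits are red and lie between 0.27 and 0.54, CDC6, CDT1 and GMNN lie between 0.00 and 0.14 and are grey, and CLSPN stands farthest to the right at 1.27.

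The upstream sequences of 6 of these genes are shown because the members moved mostly in one direction and the E2F binding sequence is the motif for which their promoters are best known. RRM2, MCM3 and MCM2 had the smallest adjusted p, and MCM6, CLSPN and CDT1 were chosen after their values were seen, as genes with a large or a near-zero difference. Each sequence runs 5′ to 3′ on the gene's strand from 250 bases before to 20 bases after the RefSeq transcript start (GRCh38.p14). Capitals mark every match to TTTCCCGC, TTTGGCGC, TTTCGCGC or TTTGCCGC, which are forms of the E2F consensus, and to the CCAAT box, on either strand.
RRM2 (chr2:10122489-10122758, plus strand): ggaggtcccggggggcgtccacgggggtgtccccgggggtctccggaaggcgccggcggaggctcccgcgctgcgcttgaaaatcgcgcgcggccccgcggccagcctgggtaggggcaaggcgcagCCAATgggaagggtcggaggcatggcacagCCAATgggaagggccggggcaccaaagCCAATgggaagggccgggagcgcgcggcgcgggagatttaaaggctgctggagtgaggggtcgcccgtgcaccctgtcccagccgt
MCM3 (chr6:52284723-52284992, minus strand): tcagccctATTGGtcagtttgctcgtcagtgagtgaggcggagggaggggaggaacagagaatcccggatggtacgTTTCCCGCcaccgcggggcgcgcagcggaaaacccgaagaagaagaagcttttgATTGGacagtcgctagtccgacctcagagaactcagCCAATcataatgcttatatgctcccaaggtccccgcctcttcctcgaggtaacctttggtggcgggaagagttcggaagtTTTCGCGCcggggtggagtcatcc
MCM2 (chr3:127598161-127598430, plus strand): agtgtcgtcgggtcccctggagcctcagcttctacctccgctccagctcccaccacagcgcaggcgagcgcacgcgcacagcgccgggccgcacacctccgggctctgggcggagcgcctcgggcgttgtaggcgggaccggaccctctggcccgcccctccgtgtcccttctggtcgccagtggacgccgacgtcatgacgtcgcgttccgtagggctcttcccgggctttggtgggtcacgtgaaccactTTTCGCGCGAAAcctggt
MCM6 (chr2:135876424-135876693, minus strand): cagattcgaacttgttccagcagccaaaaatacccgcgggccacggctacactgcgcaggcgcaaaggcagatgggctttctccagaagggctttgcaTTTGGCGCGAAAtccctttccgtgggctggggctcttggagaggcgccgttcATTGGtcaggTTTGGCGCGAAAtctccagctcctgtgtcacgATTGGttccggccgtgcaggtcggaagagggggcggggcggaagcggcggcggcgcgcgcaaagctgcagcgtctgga
CLSPN (chr1:35769959-35770228, minus strand): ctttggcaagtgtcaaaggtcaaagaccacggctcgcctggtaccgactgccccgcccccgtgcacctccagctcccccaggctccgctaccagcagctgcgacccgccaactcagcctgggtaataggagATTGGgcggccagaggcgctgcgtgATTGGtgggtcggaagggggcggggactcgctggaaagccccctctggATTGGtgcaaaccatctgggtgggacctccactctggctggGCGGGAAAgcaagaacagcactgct
CDT1 (chr16:88803539-88803808, plus strand): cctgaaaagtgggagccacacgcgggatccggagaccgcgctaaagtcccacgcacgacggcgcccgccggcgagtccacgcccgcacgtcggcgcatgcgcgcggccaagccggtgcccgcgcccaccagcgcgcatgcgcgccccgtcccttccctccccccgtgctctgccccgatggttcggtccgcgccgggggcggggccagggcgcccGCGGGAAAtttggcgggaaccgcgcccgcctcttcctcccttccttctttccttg
RRM2 held 3 CCAAT boxes and 0 E2F words in this stretch. MCM3 held 2 E2F words and 3 CCAAT boxes. In MCM2 the 2 E2F words overlap in 1 palindromic run just after the start. MCM6 held 4 E2F words, in 2 overlapping pairs, and 2 CCAAT boxes. CLSPN and CDT1 each held 1 E2F word, that of CLSPN spanning the start, with 3 CCAAT boxes in CLSPN and 0 in CDT1. A match is a description of the letters and not a measured binding site.

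The 6 subunits of the origin recognition complex mark the sites where replication can begin. They showed 1 call (16.7%, against 9.44% of all genes tested). ORC1 (chr1:52372829-52404423), the subunit whose level is known to follow the cell cycle, had 39.4 and 37.8 CPM in OE-WT and 28.4 and 30.8 CPM in CTRL. Its OE-WT libraries were both above its CTRL libraries, with a log2 fold change of 0.39 ± 0.09 (SE, adjusted p = 0.0045), though DESeq2 gave an adjusted p of 0.058. ORC4 (chr2:147930396-148021604), an ATP-binding subunit of the ring, had the smallest log2 fold change of the complex, 0.08 ± 0.10 (adjusted p = 0.62), at 25.5 and 25.1 CPM against 24.7 and 23.0 CPM. The other 4 subunits had log2 fold changes between 0.11 and 0.31 that did not pass the threshold, and ORC3 alone overlapped between the groups. Set against the mean of ORC2 to ORC6 per kilobase of transcript, ORC1 stood at a ratio of 1.17 in both OE-WT libraries and at 0.980 and 0.993 in the CTRL libraries.

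For the proteins that load the helicase and the inhibitor that stops loading, the differences were small, and 0 of these 3 genes were called by edgeR, by DESeq2 or at an unadjusted p below 0.05. CDC6 (chr17:40287879-40304657), the ATPase that joins the origin complex in G1, had 99.8 and 118 CPM in OE-WT and 97.7 and 99.4 CPM in CTRL. The first OE-WT library lay next to the CTRL libraries and the second above them, and the log2 fold change of 0.14 ± 0.08 (adjusted p = 0.19) became 0.01 without OE-WT 2 and 0.26 without OE-WT 1. CDT1 (chr16:88803789-88809258), which brings MCM2-7 to the origin, had 48.9 and 52.2 CPM against 50.0 and 50.4 CPM. Its CTRL values fell inside the OE-WT range, with a log2 fold change of 0.01 (95% interval from -0.15 to 0.16). The CDT1 estimate was 0.20 (adjusted p = 0.074) once a trend with transcript GC content was removed. CDT1 has a transcript GC content of 64.3%. GMNN (chr6:24774931-24786099), the inhibitor of CDT1, had 28.9 and 26.4 CPM against 26.7 and 28.6 CPM, and its groups overlapped as well, with a log2 fold change of 0.00 (95% interval from -0.19 to 0.20). The CDT1 transcript per kilobase was 0.801 and 0.936 times that of GMNN in OE-WT and 0.889 and 0.836 times in CTRL, again overlapping.

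All 6 genes of the MCM2-7 helicase, the ring that unwinds DNA, were called higher, against 9.44% of all genes tested. Their median log2 fold change was 0.39. MCM6 (chr2:135839626-135876443) had the largest log2 fold change of the 6, at 75.3 and 61.9 CPM in OE-WT and 43.6 and 50.7 CPM in CTRL. The OE-WT libraries differed from each other by more than those of any other MCM gene, but each was above both CTRL libraries, and the log2 fold change was 0.54 ± 0.09 (adjusted p = 0.00026). MCM3 (chr6:52264014-52284881) had 123 and 119 CPM against 81.4 and 89.5 CPM, with a log2 fold change of 0.50 ± 0.07 (adjusted p = 3e-05). For MCM2 (chr3:127598410-127622436) the values were 171 and 175 CPM against 124 and 127 CPM, with a log2 fold change of 0.46 ± 0.07 (adjusted p = 3e-05). In both genes the gap between the groups was several times the distance between libraries of a group. MCM2 shares 23.6% of its exon bases with a long noncoding RNA gene on the other strand. The strand setting of the counting is not given in the sources used here. Of the 58 genes, 8 share over 10% of their exon bases with another gene, on the same or the other strand. MCM7 (chr7:100092233-100101940) showed the smallest rise, from 238 and 244 CPM to 291 and 290 CPM, a log2 fold change of 0.27 ± 0.06 (adjusted p = 0.0038). MCM4 and MCM5 rose by 0.29 and 0.32 on the log2 scale. The calls of MCM4 and MCM7 were lost when library size alone was used for scaling (adjusted p = 0.074 and 0.12).

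**Figure D2:**
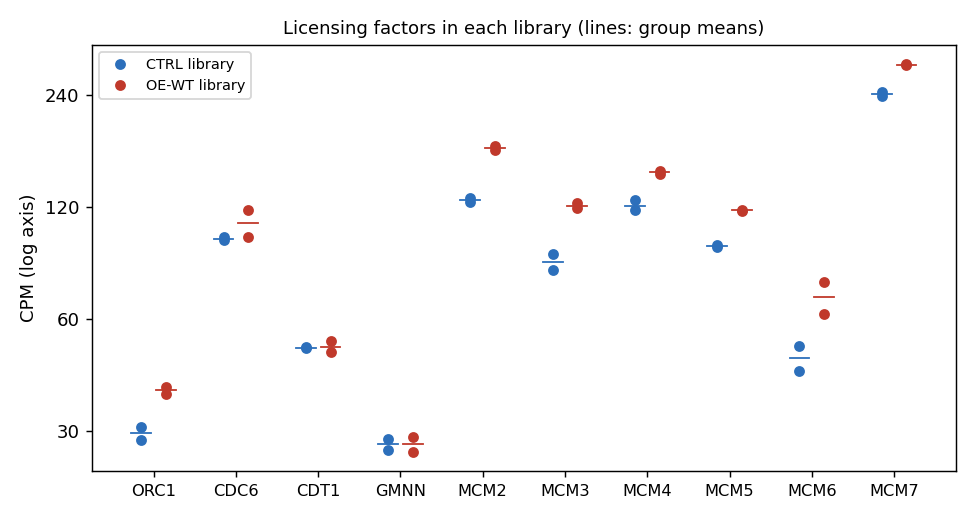
CPM of 10 licensing factors in each library on a log axis, with CTRL libraries in blue, OE-WT libraries in red and short lines at the group means. The red points of ORC1 and of MCM2 to MCM7 all lie above the blue ones, while those of CDT1 and GMNN overlap with the blue ones.

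The 6 MCM transcripts were not at equal levels. Per kilobase of transcript, MCM7 made up 39.5% and 40.0% of the summed MCM2-7 level in OE-WT and 42.6% and 41.7% in CTRL. MCM6 was the lowest, at 6.72% and 5.61% in OE-WT and 5.12% and 5.70% in CTRL. The share of MCM7 was lower in both OE-WT libraries, and that of MCM3 was higher, at 13.5% and 13.2% against 11.7% and 12.3%. The mean MCM2-7 level per kilobase was 2.71 and 2.50 times that of CDT1 in OE-WT and 2.02 and 2.08 times in CTRL. Against the mean of the 6 ORC genes the ratio was 4.47 and 4.60 in OE-WT and 4.09 and 3.98 in CTRL. Neither pair of groups overlapped, and with 2 libraries against 2 an exact two-sided permutation test of such a ratio cannot go below p = 0.333.

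Of the 11 firing factors, 7 were called higher (63.6%, against 9.44% of all genes tested). DESeq2 called 3, against 519 of the 14133 genes tested. The log2 fold change was above 0 in 10 of the 11, with a median of 0.46. TOPBP1 (chr3:133598175-133662380), the scaffold that helps assemble the CMG helicase and activates the ATR checkpoint kinase, had 10.3 and 10.0 CPM in OE-WT and 5.60 and 7.39 CPM in CTRL. Its groups did not overlap, and its log2 fold change of 0.65 ± 0.18 (adjusted p = 0.012) was the largest of the step. Without CTRL 1 it was 0.46, without CTRL 2 it was 0.86, and DESeq2 gave an adjusted p of 0.10. GINS3 (chr16:58295080-58406147), a subunit of the GINS ring, had 35.5 and 36.0 CPM against 22.5 and 23.5 CPM. Libraries of 1 group nearly coincided, and the log2 fold change was 0.63 ± 0.10 (adjusted p = 6.7e-05). GINS2 (chr16:85676198-85690073) had 55.6 and 54.7 CPM against 39.6 and 40.6 CPM, a log2 fold change of 0.46 ± 0.08 (adjusted p = 0.00027). CDC45, which joins GINS and MCM2-7 in the active helicase, rose by 0.49 on the log2 scale, and GINS4 by 0.31. The call of GINS4 was lost with DESeq2 (adjusted p = 0.16), with library size only (0.11) and without a filter on low counts (0.066). GINS3 and GINS4 share 10.9% and 21.0% of their exon bases with noncoding RNA genes on the other strand. Those had log2 fold changes of 0.50 (adjusted p = 0.075) and 0.36 (adjusted p = 0.11). Only GINS1 missed the threshold among the 11 genes of the CMG helicase, with a log2 fold change of 0.20 and an adjusted p of 0.10.

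MCM10, which binds the helicase as it is activated, and DBF4, the regulatory subunit of the CDC7 kinase, also rose, by 0.60 and 0.58 on the log2 scale. The call of MCM10 was lost with DESeq2 (adjusted p = 0.071). DBF4, on 69 to 99 reads per library, lost its call with DESeq2 (adjusted p = 0.18). Its call was also lost without a filter on low counts (adjusted p = 0.067) and with the GC trend removed (adjusted p = 0.071). CDC7 itself had a log2 fold change of 0.30 (adjusted p = 0.34) on 53 to 65 reads per library. TICRR, which carries the cyclin-dependent kinase signal to TOPBP1, stood at 0.27 (adjusted p = 0.18), a value that was 0.08 without OE-WT 1. RECQL4, a RecQ-type helicase needed in early replication, had 61.8 and 57.1 CPM in OE-WT and 65.5 and 60.5 CPM in CTRL. Its groups overlapped, and its log2 fold change of -0.08 ± 0.08 (adjusted p = 0.48) became 0.12 once a trend with transcript GC content was removed. RECQL4 has the highest transcript GC content of the 58 genes, at 65.3%.

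Among the 9 polymerase and primase genes, 2 were called higher (22.2%, against 9.44% of all genes tested), and DESeq2 called 1. The log2 fold change was above 0 in 7 of the 9. POLA1 (chrX:24693873-24996986), the catalytic subunit of polymerase alpha, had 6.85 and 6.39 CPM in OE-WT and 3.34 and 3.90 CPM in CTRL. Those values rest on 68 and 65 reads against 43 and 48 reads, and the groups were well apart, with a log2 fold change of 0.87 ± 0.21 (adjusted p = 0.005), the second largest of all 58 genes. DESeq2 gave an adjusted p of 0.066. The partners of POLA1 in the polymerase alpha and primase complex did not share a rise of that size, with log2 fold changes of 0.25 for POLA2 (adjusted p = 0.064), 0.27 for PRIM1 (adjusted p = 0.18) and -0.10 for PRIM2 (adjusted p = 0.60). PRIM2 (chr6:57314805-57646850), the large primase subunit, had the lowest log2 fold change of the step and overlapped between the groups, at 20.6 and 19.4 CPM against 20.3 and 22.4 CPM. Whether these 4 genes differ from each other in their change was not tested.

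POLD2 (chr7:44114631-44124358), an accessory subunit of polymerase delta, had 163 and 161 CPM in OE-WT and 130 and 124 CPM in CTRL. Its log2 fold change was 0.35 ± 0.07 (adjusted p = 0.0006), and the groups were clearly apart. The catalytic subunit POLD1 had a log2 fold change of 0.21 (adjusted p = 0.056), and it reached 0.40 (adjusted p = 0.00068) with the GC trend removed. POLD1 has a transcript GC content of 64.8%. POLD3, another delta subunit, stood at 0.42 (adjusted p = 0.068) with libraries at 12.5 and 13.7 CPM against 8.47 and 11.1 CPM, and this value was 0.23 without CTRL 1 and 0.63 without CTRL 2. POLE, the catalytic subunit of the leading-strand polymerase epsilon, overlapped between the groups, with 43.1 and 42.4 CPM against 43.5 and 42.5 CPM and a log2 fold change of -0.01 (95% interval from -0.17 to 0.15). Its partner POLE2 had 0.35 (adjusted p = 0.28), a value that was 0.01 without OE-WT 2 and 0.61 without OE-WT 1.

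Of the 9 genes of the clamp, the clamp loader and the lagging strand, 5 were called higher (55.6%, against 9.44% of all genes tested). All 9 had log2 fold changes above 0, with a median of 0.27. DESeq2 called 2. PCNA (chr20:5114953-5126626), the sliding clamp, had 339 and 329 CPM in OE-WT and 269 and 261 CPM in CTRL. Per kilobase of transcript it was the most abundant of the 58 genes in every library, at 266 and 258 against 211 and 204 CPM per kilobase. The groups were far apart relative to their own spread, with a log2 fold change of 0.33 ± 0.06 (adjusted p = 0.00067). FEN1, the nuclease that trims Okazaki fragments, and LIG1, the ligase that joins them, rose by 0.33 and 0.27 on the log2 scale. The call of LIG1 was lost in 4 of 8 alternatives, among them DESeq2 (adjusted p = 0.23), and its value was 0.16 without OE-WT 1.

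The replication factor C complex opens the PCNA ring and places it on DNA. RFC3 and RFC5 rose, by 0.35 and 0.26 on the log2 scale, and each lost its call in at least 4 of 8 alternatives. RFC5 shares 5.72% of its exon bases with WSB2 on the opposite strand, which had a log2 fold change of 0.44 (adjusted p = 5.1e-05). RFC1 (chr4:39287456-39366375), the large subunit, had the highest estimate of the step, with 9.47 and 8.94 CPM against 6.22 and 7.71 CPM. Its groups did not overlap, but at 80 to 95 reads per library the log2 fold change of 0.40 ± 0.18 had an adjusted p of 0.11. RFC4 (chr3:186789880-186807058), a small subunit, had 23.4 CPM in both OE-WT libraries and 21.8 and 22.0 CPM in CTRL, a log2 fold change of 0.09 ± 0.11 (adjusted p = 0.58). RFC2 stood between them at 0.22 (adjusted p = 0.065). DNA2, a nuclease and helicase, overlapped between the groups on 30 to 54 reads, with a log2 fold change of 0.10 that was -0.29 without CTRL 1 and 0.62 without CTRL 2.

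The 4 fork protection genes included both the highest and the lowest log2 fold change of the 58. CLSPN (chr1:35720218-35769978) encodes claspin, which links the moving fork to the checkpoint kinase CHK1. It had 71 and 76 reads in OE-WT against 41 and 35 reads in CTRL, or 7.15 and 7.47 CPM against 3.19 and 2.84 CPM. Both OE-WT libraries were more than double both CTRL libraries, with a log2 fold change of 1.27 ± 0.21 (adjusted p = 0.00018). The call held under all 8 alternative fits, and the value lay between 1.20 and 1.36 with each library left out. TIMELESS (chr12:56416363-56449426), which works at the fork together with claspin and TIPIN, had 56.4 and 57.6 CPM in OE-WT and 63.8 and 62.1 CPM in CTRL. It was the 1 member whose OE-WT libraries were both below its CTRL libraries, with a log2 fold change of -0.14 ± 0.07 (adjusted p = 0.18). With scaling by library size alone it was -0.23 (adjusted p = 0.046). Per kilobase of transcript, CLSPN stood at 0.0768 and 0.0786 times TIMELESS in OE-WT and at 0.0303 and 0.0277 times in CTRL. TIPIN (log2 fold change 0.28, adjusted p = 0.21) and WDHD1 (0.13, adjusted p = 0.82), an adaptor between the helicase and polymerase alpha, overlapped between the groups. WDHD1 had 21 to 42 reads per library, and its mean CPM was the lowest of all 58 genes.

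All 5 genes of deoxynucleotide supply had both OE-WT libraries above both CTRL libraries, against 29.9% of all genes tested. Of the 5 genes, 4 were called higher (80.0%, against 9.44% of all genes tested). RRM2 (chr2:10120698-10211725), the small subunit of ribonucleotide reductase and the one that limits its activity in S phase, had 197 and 193 CPM in OE-WT and 135 and 142 CPM in CTRL. The gap between the groups was much wider than the distance between libraries of a group, and with a log2 fold change of 0.50 ± 0.07 it had the smallest adjusted p of the 58 genes (1.3e-05). RRM1 (chr11:4094707-4138932), the large subunit, had 115 and 100 CPM against 83.4 and 96.8 CPM. Its second OE-WT library lay just above its second CTRL library, and its log2 fold change was 0.26 ± 0.08 (adjusted p = 0.025). The value was 0.16 without OE-WT 1 or without CTRL 1, and the call was lost in 4 of 8 alternative fits, with DESeq2 at an adjusted p of 0.13. Per kilobase, RRM2 stood at 1.65 and 1.86 times RRM1 in OE-WT and at 1.56 and 1.42 times in CTRL.

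TYMS (chr18:657653-673578), which makes dTMP and is the target of fluorouracil, had 168 and 167 CPM against 143 and 133 CPM, a log2 fold change of 0.27 ± 0.07 (adjusted p = 0.0048). TYMS shares 39.9% of its exon bases with ENOSF1 on the opposite strand, and ENOSF1 had a log2 fold change of 0.20 (adjusted p = 0.041). Reads of the pair cannot be told apart if the counting ignored strand. TK1 (chr17:78174091-78187233), the S phase thymidine kinase, had 289 and 283 CPM against 247 and 246 CPM. Its groups did not overlap, and its log2 fold change of 0.22 ± 0.06 (adjusted p = 0.017) was the smallest among the 28 calls. DUT, the enzyme that keeps uracil out of DNA, stood at 78.3 and 67.5 CPM against 62.2 and 62.9 CPM, with a log2 fold change of 0.22 (adjusted p = 0.052). Of the 4 calls in deoxynucleotide supply only that of RRM2 held when library size alone was used for scaling, and DESeq2 called 2.

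Among the 5 genes for histone chaperones and S phase chromatin, 2 were called higher (40.0%, against 9.44% of all genes tested). All 5 had log2 fold changes above 0. UHRF1 (chr19:4903080-4962154), which brings the maintenance DNA methyltransferase to newly copied DNA, had 59.1 and 59.4 CPM in OE-WT and 46.1 and 43.6 CPM in CTRL. Its log2 fold change was 0.40 ± 0.08 (adjusted p = 0.00084), with the groups well apart. ASF1B (chr19:14119512-14136613), the histone H3-H4 chaperone of proliferating cells, had 82.3 and 79.1 CPM against 58.8 and 64.6 CPM. It also did not overlap, with a log2 fold change of 0.39 ± 0.07 (adjusted p = 0.00078). SLBP (chr4:1692731-1712344), which binds the stem loop of histone mRNAs, had 101 CPM in both OE-WT libraries and 92.4 and 84.9 CPM in CTRL, a log2 fold change of 0.19 ± 0.07 (adjusted p = 0.066). The CAF-1 chaperone subunits did not pass the threshold. CHAF1A (chr19:4402640-4445018) had the smallest log2 fold change of the step, 0.05 (95% interval from -0.11 to 0.20), at 50.3 and 51.3 CPM against 49.7 and 48.5 CPM, and CHAF1B stood at 0.24 (adjusted p = 0.087).

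**Figure D3:**
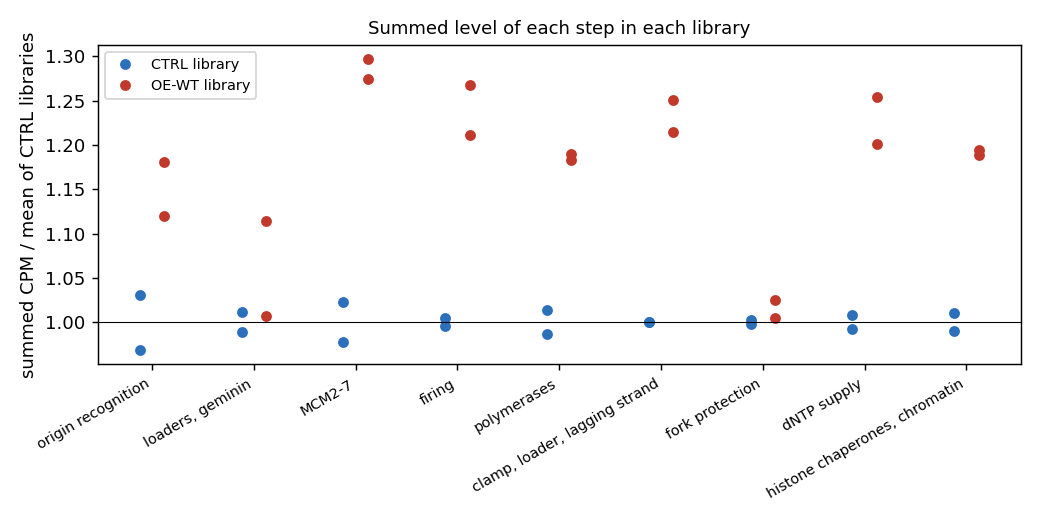
Summed CPM of each step in each library, divided by the mean of the CTRL libraries (vertical axis), with CTRL libraries in blue and OE-WT libraries in red. The ratio of group means is highest for MCM2-7 at 1.29, is 1.06 for the loaders with geminin, and is 1.01 for fork protection, where CLSPN adds few reads. Over all genes tested, not drawn here, the ratio is 1.07, which is set by the normalization factors and is no baseline for a typical gene.

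The summed levels set the steps side by side. The ratio of OE-WT to CTRL was 1.29 for MCM2-7, 1.24 for firing, 1.23 for the clamp, its loader and the lagging strand, 1.23 for deoxynucleotide supply, 1.19 for the polymerases and 1.19 for histone chaperones and chromatin. It was 1.15 for the origin recognition complex, 1.06 for the loaders with geminin and 1.01 for fork protection. Over all genes tested the ratio was 1.07. That value is set by the normalization factors and does not give the change of a typical gene. The median log2 fold change of all genes tested was 0.01. Differences between steps were not tested.

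Low counts limit part of this picture. The 16 genes with a mean under 20 CPM had a median log2 fold change of 0.33 and 5 calls, and the other 42 genes had a median of 0.26 and 23 calls. The median standard error was 0.18 in the first set and 0.08 in the second. Spearman's rho of the log2 fold change with the level was -0.11 over the 58 genes, which share the same 4 libraries. The rho with transcript GC content was -0.12 over the 58 genes and -0.31 over 14051 of the genes tested.

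**Figure D4:**
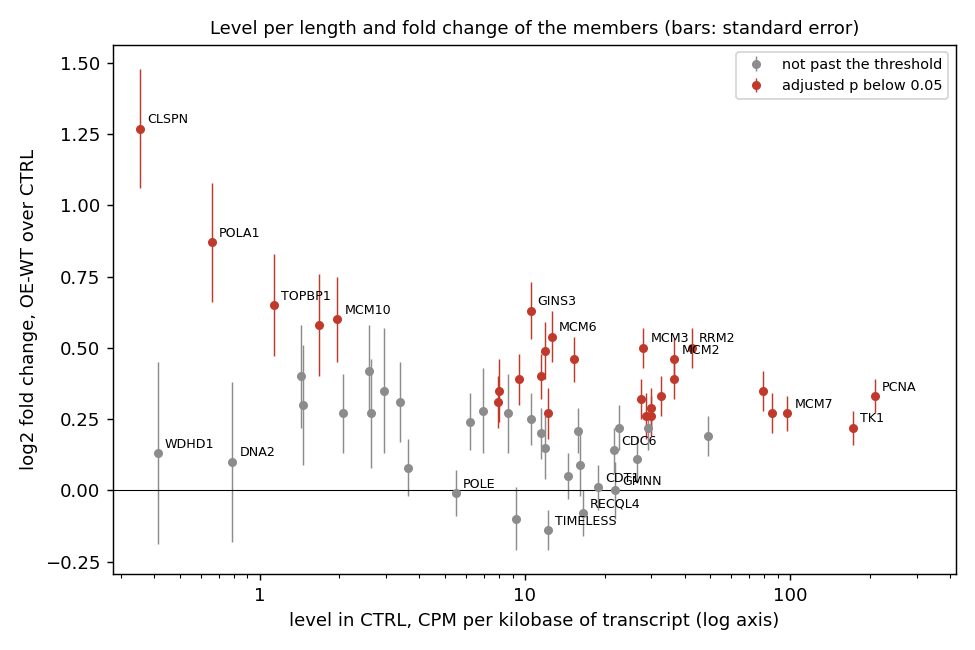
Level in CTRL, in CPM per kilobase of transcript on a log axis, against the log2 fold change of OE-WT over CTRL for the 58 genes; bars are standard errors and red marks an adjusted p below 0.05. The largest estimates, CLSPN at 1.27 and POLA1 at 0.87, belong to genes with low levels and long bars, and PCNA at the far right stands at 0.33.

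The E2F words shown above were counted in the RefSeq windows from 250 bases before to 50 bases after each start. Of the 58 genes 52 had such a window, and 25 of these (48.1%) held at least 1 of the 4 words on either strand, against 6.66% of 10175 tested genes with a window and 3.99% of all 27305 genes with a window. Base composition was not matched between these sets, and the GC box GGGCGG was present in 80.8% of the members and in 77.4% of tested genes. The CCAAT box was present in 57.7% of the members and in 42.8% of tested genes. Within the replication genes the medians with and without a word were close. Those with an E2F word had a median log2 fold change of 0.30 and 14 calls among 25, and those without had 0.26 and 11 calls among 27. MCM2, MCM3 and CLSPN were among the genes that held an E2F word and passed the threshold. CDT1, GMNN and CDC6 were among those that held one and did not pass it. RRM2 passed it and held none in its window, which does not cover sequence farther away. Whether a word goes with the change was not tested.

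A wider list held 38 genes of replication and nucleotide metabolism outside the 58. Of these, 13 were called higher (34.2%, against 9.44% of all genes tested) and 0 lower, with a median log2 fold change of 0.21. At an unadjusted p below 0.05, 18 were higher and 0 lower, against 2313 and 2471 of 14133 genes tested. DESeq2 called 7 higher and 0 lower, against 519 and 854 of all genes tested. SAMHD1, which breaks down deoxynucleotides, had the highest called value at 0.80 ± 0.13 (SE, adjusted p = 0.0002), followed by MCM8, a helicase of recombination repair, at 0.75 ± 0.20 (adjusted p = 0.01). The lowest called values were 0.21 for SSRP1, a subunit of the histone chaperone FACT (adjusted p = 0.025), and 0.21 for RPA1, the large subunit of the single-strand binding protein (adjusted p = 0.042).

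Regulators of S phase entry, a list of 14, had 5 calls higher (35.7%, against 9.44% of all genes tested) and 0 lower. Their median log2 fold change was 0.27. CCNE2, a cyclin E, had 0.73 ± 0.25 (adjusted p = 0.042), on values of 8.06 and 4.91 CPM against 3.11 and 4.71 CPM that lay close together in the second libraries. E2F7, a repressor of the E2F family, had 0.63 ± 0.20 (adjusted p = 0.025), and CDC25A, the phosphatase that activates CDK2, had 0.33 (adjusted p = 0.0061). E2F2 and E2F3 both stood at 0.52, with adjusted p of 0.0086 and 0.0043, while E2F1, named after its value was seen, overlapped between the groups at 0.06 (adjusted p = 0.67). CDKN1A, which encodes the inhibitor p21 and was likewise named after its value was seen, had 60.5 and 69.6 CPM against 72.1 and 60.2 CPM, a log2 fold change of -0.03 (95% interval from -0.20 to 0.15). At an unadjusted p below 0.05, 7 of the 14 were higher and 0 lower, against 2313 and 2471 of 14133 genes tested. DESeq2 called 1 of the 14 higher and 0 lower, against 519 and 854 of all genes tested.

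Of 22 listed genes of mitosis, 21 were tested, with a median log2 fold change of 0.04. Of these, 2 were called higher (9.52%, against 9.44% of all genes tested) and 1 lower. CENPF, a kinetochore protein, rose by 0.71 ± 0.16 on the log2 scale (adjusted p = 0.0024), and BIRC5, which encodes survivin, by 0.27 ± 0.06 (adjusted p = 0.0048). CCNB2, a mitotic cyclin, had 92.0 and 100 CPM against 108 and 117 CPM and a log2 fold change of -0.22 ± 0.07 (adjusted p = 0.032), a call that the replicate block, DESeq2 and the fit without a filter on low counts did not keep. The summed level of the mitotic genes was 1599 and 1575 CPM in OE-WT and 1584 and 1586 CPM in CTRL, with overlap. The difference between the mitotic and the replication list was not tested.

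**Figure D5:**
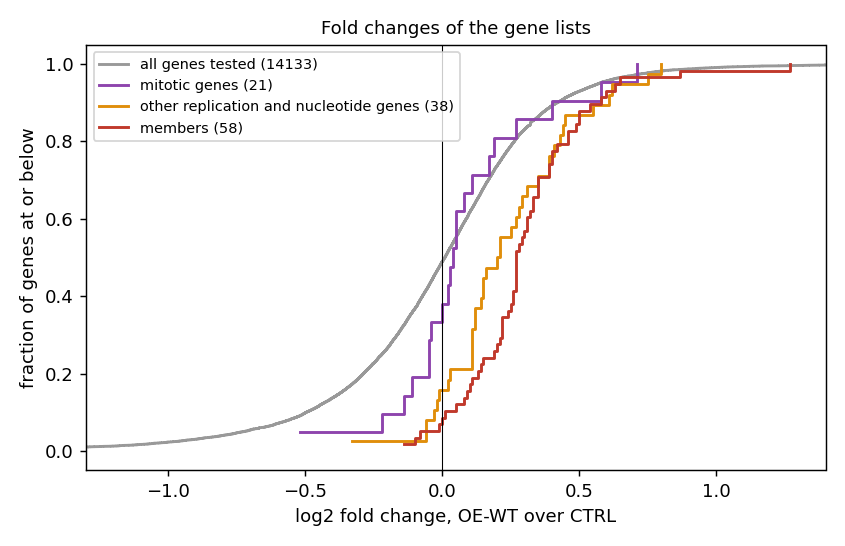
Cumulative fraction of genes (vertical axis) at or below each log2 fold change of OE-WT over CTRL (horizontal axis) for the 58 replication genes, 38 other replication and nucleotide genes, 21 mitotic genes and all 14133 genes tested; values beyond the axis limits are not drawn. The replication curves lie to the right, with medians of 0.27 and 0.21, and the mitotic curve crosses its midpoint at 0.04, near the 0.01 of all genes.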

How the data were processed

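RNA sequencing of 2 OE-WT and 2 CTRL libraries of DLD1 cells was used. The authors deposited raw read counts per gene, whole numbers without normalization, with 1 column per library, and the 2 lanes that the labels list for each library are merged in it. The labels describe poly(A) selection with a stranded kit, and the submitters' processing notes name HISAT2 2.2.1, featureCounts 2.0.0 and DESeq2 1.34.0 with GRCh38. The paper's methods instead give removal of ribosomal RNA, HTSeq counting and more replicates per group, which they call biological. Both cannot hold, and the annotation release and strand setting are not given in the sources used here. Genes of 18S ribosomal RNA held 0.466% and 0.534% of each OE-WT library and 0.131% and 0.121% of each CTRL library.

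Symbols and GRCh38 coordinates came from GENCODE release 44, which matched 57532 of 58302 identifiers. OE-WT was compared with CTRL in edgeR 4.0.16 (R 4.3.3), with the default filter by group at a minimum count of 10, TMM normalization, the quasi-likelihood test and Benjamini-Hochberg adjustment over 14133 genes. CPM use TMM-scaled library sizes, and levels between genes are compared per kilobase of the canonical GENCODE transcript. Intervals are the estimate ± 1.96 standard errors. Simulated libraries of 14133 genes, 200 of them changed, gave a recovery of 48.0% at a log2 change of 0.5 and 81.5% at 1, with 4.95% and 5.23% false calls. Fewer genes were changed there than were called in the data. A change of 0.27, the median of the members, was not simulated, so its recovery is not known. A count of 0 allows up to 3 counts, 0.242 to 0.290 CPM, for counting error only, and no member was at 0. The members and lists were chosen with earlier results of these data known, so their counts are descriptions without a list test.

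Named genes were TRMT6 and TRMT61A, the highest and lowest member of each of 9 groups of steps, the 10 members with the smallest adjusted p, and CDC6, CDT1, GMNN, MCM2, PCNA, TYMS, RRM1, RRM2, TK1 and SLBP. The other members have 1 value each, with libraries added where a value needed them. In the other lists, the 2 highest and 2 lowest calls were named. Alternatives were DESeq2 1.42.0, RLE factors, scaling by library size only, a likelihood ratio test in edgeR, 2 other filters, a replicate block, a GC trend removed by lowess (span 0.3) and each library left out (values only, dispersion 0.01). Same-numbered libraries did not deviate together (correlation -0.0681), and the main fit did not pair them. With 2 libraries per group this value cannot show whether same-numbered samples were prepared together. Promoter windows came from RefSeq (GRCh38.p14). Figures were drawn with matplotlib 3.10.9. Other assays were not analysed here.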

Additional observations from a re-analysis of the deposited data

How the results depend on the processing

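Of the 28 replication genes called higher, 14 kept the call under all 8 alternative fits (MCM2, MCM3, MCM5, MCM6, CDC45, GINS2, GINS3, POLD2, PCNA, FEN1, CLSPN, RRM2, ASF1B and UHRF1), and all 28 stayed above 0 in these fits and with each library left out. The number called higher was 28 with RLE factors, 29 with the likelihood ratio test, 28 with at least 10 counts in every library, 27 without the GC trend, 21 without a filter beyond 1 count, 19 with library size only and 17 with DESeq2. In the same order, the shares of all genes tested called higher were 9.5%, 10.6%, 9.78%, 9.82%, 3.23%, 5.19% and 3.67%. The main fit had 9.44%. Without the GC trend 24 of the 28 calls were kept, and POLA2, POLD1 and RFC2 were gained. With the replicate block 25 members and 8.1% of all genes tested were called higher, and the mitotic genes called lower went from 1 to 0. The block moved no other count by over 1.5 times. Library size only moved the median of the members to 0.18 and that of all genes to -0.08, leaving a difference of 0.26 as before. It gave 1 member called lower (TIMELESS, among polymerases and fork), 5 called higher among polymerases and fork, 1 in deoxynucleotide supply, 7 other replication genes and 1 mitotic gene higher and 2 lower. DESeq2 gave 3 calls in firing, 4 among polymerases and fork, 2 in deoxynucleotide supply, 7 other replication genes, 1 entry regulator and 0 mitotic genes lower. Without the filter there were 5, 2 and 3 calls among polymerases and fork, deoxynucleotide supply and entry regulators, and 0 mitotic genes lower; without the GC trend 2 mitotic genes were lower. The causes of these shifts were not tested. With each library left out the median of the members ranged from 0.25 to 0.33, the highest without OE-WT 2 and without CTRL 2.

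Signs turned in genes outside the 28 calls. With library size only, ORC4 was -0.01, CDT1 -0.08, GMNN -0.09 and CHAF1A -0.04. Without the filter, CDT1 was -0.01 and GMNN -0.02, and GMNN was -0.00 where every library had to hold 10 counts or more. Without the GC trend, ORC4 was -0.04, GMNN -0.08, RECQL4 0.12, POLE 0.06 and DNA2 -0.02. With a library left out, the values ranged from -0.05 to 0.06 for CDT1, from -0.06 to 0.06 for GMNN, up to 0.01 for POLE, from -0.29 to 0.62 for DNA2 and from -0.25 to 0.68 for WDHD1. At 21 to 54 reads per library, DNA2 and WDHD1 give no direction.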
